A study of Homo sapiens with 2 samples.

Results

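The genes described here are 10 genes of the retinoic acid pathway: the retinoic acid receptors RARA, RARB and RARG, the retinoid X receptors RXRA, RXRB and RXRG, the cellular retinoic acid binding proteins CRABP1 and CRABP2, and the retinoic acid hydroxylases CYP26A1 and CYP26B1. They were listed by symbol, with earlier results of these data known. Each symbol matched 1 Ensembl identifier in GENCODE version 44, and all 10 had a row among the 60554 genes counted, of which 19586 were protein-coding. The RNA came from the chromatin fraction of SH-SY5Y cells, a human cell line derived from a neuroblastoma and cultured here with no genetic modification. There were 2 replicates of 1 condition, so no comparison between conditions was possible, and nothing read here says whether they were grown as separate cultures, so their spread may be technical. Chromatin RNA is the RNA that stays with the chromatin pellet when nuclei are lysed, and it is rich in transcripts still being made.

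Retinoic acid is made from vitamin A by dehydrogenases, carried in the cytoplasm and to the nucleus by CRABP proteins, and destroyed by CYP26 enzymes. In the nucleus it binds a RAR, which sits on DNA as a pair with an RXR and exchanges corepressors for coactivators once the ligand is bound. The classic binding site is a direct repeat of a short hexamer. RARB and CYP26A1 are textbook targets of their own pathway, and retinoic acid has long been used to differentiate neuroblastoma lines.

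The letters of such a repeat were found close to a start site of both textbook targets. Each promoter window held 250 bases before and 50 bases after a RefSeq start site on GRCh38.p14, and both strands were searched for a direct repeat, with 5 bases between its parts, of the hexamer AGGTCA or of a variant of it, with AGTTCA as one variant, GGGTCA as another and GGTTCA as the last, in any pairing. The stretches are shown because they are the response elements for which these genes are known, and the capitals mark the repeat. The RARB stretch lies at chr3:25428204-25428232 on the plus strand, its repeat reads along the gene from 53 to 37 bases before the start site, and 1 exon block of other RARB transcripts also covers it. The CYP26A1 stretch lies at chr10:93073797-93073825 on the plus strand, its repeat reads on the reverse strand from 90 to 74 bases before the start site, and it too lies in 1 exon block of another CYP26A1 transcript.
RARB: gggtagGGTTCACCGAAAGTTCActcgca
CYP26A1: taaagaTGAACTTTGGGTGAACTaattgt

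The repeat was rare. It was present in 31 of 35116 promoter windows, or 0.0883%, whereas a single hexamer was present in 38.6% of them. All 10 genes had at least 1 window, 18 in all, of which 8 held a hexamer and 2 held the repeat. These 2 are the elements for which RARB and CYP26A1 are known. Finding them was therefore settled in advance and says nothing against the share of all windows. With 2 bases between the hexamers the repeat was present in 0 of the 18 windows and in 14 of all windows. Of the 29 genes with the repeat, 19 had a row in the files, and 8 of these had no sense count. Of the 16 that were protein-coding, 7 reached a mean sense count of 10, a limit that 59.4% of all protein-coding genes reached. A match in letters is a description of the window and not a measured binding site.

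Counts on the strand of the gene separated the 10 genes into a detected and a nearly silent group. Taking a mean count of at least 10 read pairs in exons as detected, 6 of the 10 genes were detected (RARA, RARB, RARG, RXRA, RXRB and CRABP2), against 59.4% of all protein-coding genes. The other 4 genes, RXRG, CRABP1, CYP26A1 and CYP26B1, had 2 counts or fewer in either library. In bulk RNA, fewer cells that transcribe a gene and less RNA per cell cannot be told apart.

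**Figure D1:**
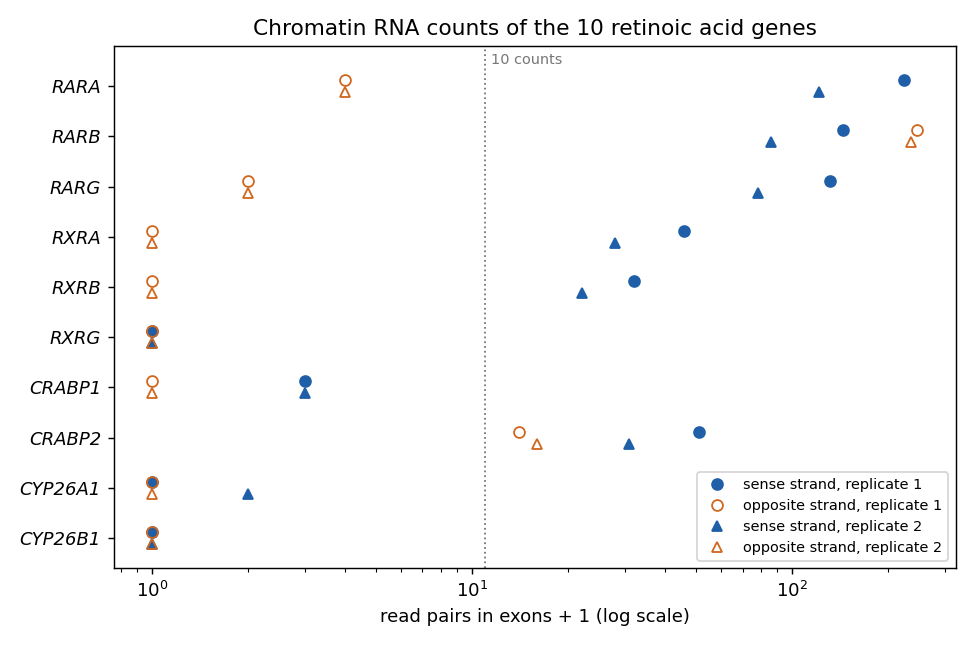
Read pairs in exons plus 1 (log axis) of the 10 genes, on the sense strand (filled) and the opposite strand (open), in replicate 1 (circles) and replicate 2 (triangles). The sense counts of the 6 detected genes run from 21 to 223 and lie right of the dotted line at 10 counts, the other 4 genes have 0 to 2, and RARB has more counts on the opposite strand than on its own.

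All RAR genes were detected. RARA, the broadly expressed receptor at chr17:40309180-40357643, had 223 counts in replicate 1 and 120 in replicate 2, which is 53.7 and 35.0 counts per 1000000 sense counts in genes (CPM), or 44.4 ± 13.2 CPM (SD, n = 2). RARB, the receptor induced by its own ligand, at chr3:24687887-25597932, had 143 and 85 counts, or 29.6 ± 6.79 CPM (SD, n = 2). RARG, the receptor known from skin and cartilage, at chr12:53210567-53232980 on the minus strand, had 130 and 77 counts, or 26.9 ± 6.23 CPM (SD, n = 2). All 3 genes were higher in replicate 1, and the ranges of RARB and RARG overlapped on the CPM scale.

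The RXR genes, whose products are the obligate partners of the RARs and of several other nuclear receptors, had lower counts. RXRA, at chr9:134317098-134440585, had 45 and 27 counts, or 9.36 ± 2.08 CPM (SD, n = 2). RXRB, at chr6:33193588-33200665 on the minus strand, had 31 and 21 counts, or 6.80 ± 0.940 CPM (SD, n = 2). RXRG, the subtype known from muscle and brain, at chr1:165400922-165445355 on the minus strand, had 0 counts in both libraries, which allows up to 0.396 CPM when 3 counts are set against both libraries together. Summed per kb of merged exons, the RAR genes stood at 21.1 and 14.4 CPM per kb and the RXR genes at 2.81 and 2.23 CPM per kb, a ratio of 7.51 in replicate 1 and 6.46 in replicate 2.

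The binding proteins differed from each other. CRABP2, which hands retinoic acid to the RARs in the nucleus, at chr1:156699606-156705816 on the minus strand, had 50 and 30 counts, or 10.4 ± 2.32 CPM (SD, n = 2). CRABP1, which holds retinoic acid in the cytoplasm, at chr15:78340353-78348225, had 2 counts in each library, or 0.533 ± 0.0725 CPM (SD, n = 2). With 2 counts the exact 95% Poisson interval was 0.0583 to 1.74 CPM in replicate 1 and 0.0707 to 2.11 CPM in replicate 2, below the interval of CRABP2 in both libraries (8.93 to 15.9 and 5.91 to 12.5 CPM). These and all other intervals given here cover counting error only.

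Counts at the hydroxylases, which clear retinoic acid and are induced by it in many cell types, were at the floor. CYP26A1, at chr10:93073475-93077885, had 0 counts in replicate 1 and 1 in replicate 2. CYP26B1, at chr2:72129238-72147862 on the minus strand, had 0 counts in both libraries. The related hydroxylase CYP26C1 ends 3934 bases before CYP26A1 on the same strand, and it had 17 and 12 counts, or 3.80 ± 0.416 CPM (SD, n = 2). Of the CYP26 genes, CYP26C1 alone had a mean count above 10. At this depth a level of CYP26A1 or CYP26B1 below that of 1 read pair could not be seen.

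Because longer exons collect more read pairs, the genes were ordered by CPM per kb of merged exons. CRABP2 (11.1 and 8.09 CPM per kb) and RARA (11.3 and 7.39 CPM per kb) stood together at the top, and their ranges overlapped. They were followed by RARG at 6.10 and 4.38 CPM per kb, RARB at 3.64 and 2.63, RXRB at 1.91 and 1.57, and RXRA at 0.897 and 0.653. From RARA down to CRABP1 (0.502 and 0.609 CPM per kb) the ranges of neighbours in this order did not overlap. However, the counting intervals of CRABP1 spanned the values of RXRA, and those of RARB and RXRB overlapped in replicate 2. CYP26A1 (0 and 0.0985 CPM per kb) could not be separated from RXRG and CYP26B1, both at 0.

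**Figure D2:**
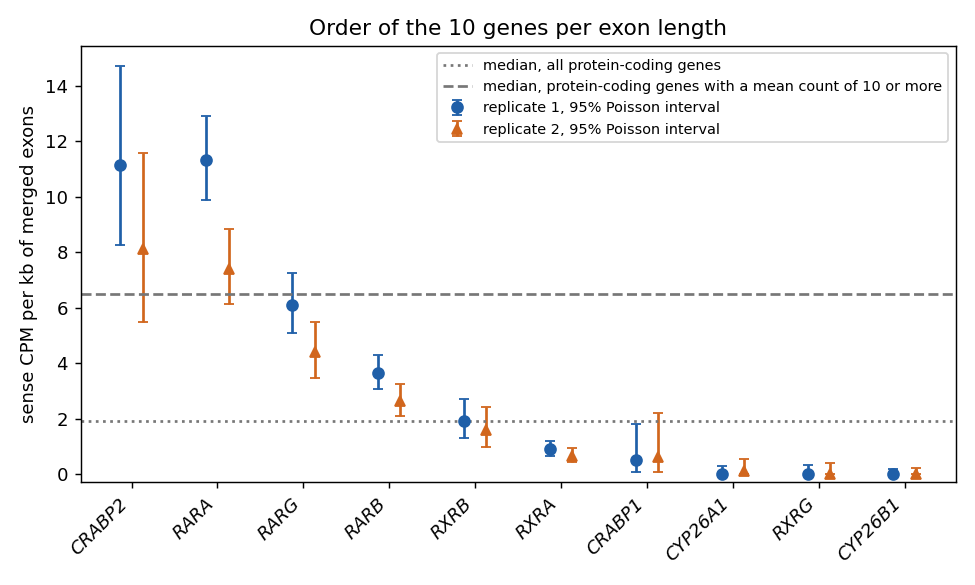
Sense CPM per kb of merged exons of the 10 genes in each library, with exact 95% Poisson intervals; the dotted and dashed lines are the medians of all and of the detected protein-coding genes, 1.90 and 6.50 CPM per kb. CRABP2 and RARA lie above both lines in both libraries, RARG and RARB lie between them, RXRB lies close to the lower line, and the remaining 5 genes lie below 1 CPM per kb.

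Over all 10 genes the median level was 1.26 CPM per kb, against 1.90 CPM per kb for all protein-coding genes. CRABP2 and RARA ranked above 78.6% and 78.0% of protein-coding genes on the CPM per kb scale, RARG above 66.0% and RARB above 56.9%. RXRB, at 48.9%, and RXRA, at 42.0%, were close to the middle. Of the 6 detected genes alone the median was 4.19 CPM per kb, and that of all detected protein-coding genes was 6.50 CPM per kb.

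RARB was the only member with more read pairs on the opposite strand than on its own. Its exons held 245 and 234 opposite-strand counts against the 143 and 85 sense counts, so that the opposite strand took 67.8% of both strands together (Wilson 95% interval 64.2 to 71.1%). The share was 63.1% in replicate 1 and 73.4% in replicate 2. One of the 6 detected members had more opposite than sense counts, against 10.7% of the 12575 protein-coding genes with a mean of at least 10 counts on both strands, whose median opposite share was 1.09%.

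The genes annotated inside RARB on that strand, RN7SL216P, RNA5SP126, H3P10 and the snoRNA gene ENSG00000272166, had 0 or 1 sense counts in either library. The next gene beyond the end of RARB is TOP2B, on the opposite strand, which encodes DNA topoisomerase II beta. TOP2B ends 45 bases beyond the end of RARB and is transcribed toward it, and it had 2920 and 2673 sense counts (742 ± 54.9 CPM, SD, n = 2), a mean count 24.5-fold that of RARB. The opposite-strand counts of RARB amounted to 8.39% of the TOP2B counts in replicate 1 and 8.75% in replicate 2 (8.56% over both). The last exon block of RARB is 1513 bases long and faces TOP2B directly, and 1877 exon bases of RARB lie within 10 kb of its end. The counts are given per gene, so where in RARB the opposite-strand read pairs lie was not tested.

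**Figure D3:**
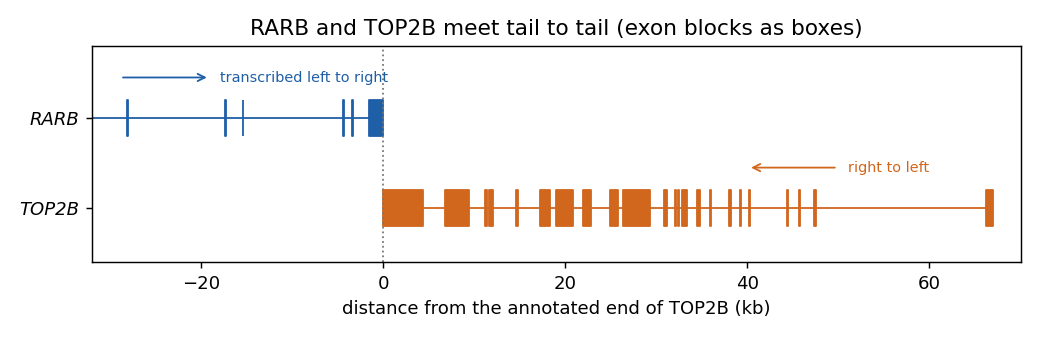
Exon blocks (boxes) of RARB and TOP2B by distance in kb from the annotated end of TOP2B, with arrows for the direction of transcription; the first exons of RARB lie outside the plot. The 2 genes point at each other with 45 bases between their ends, and the 1513-base last exon block of RARB adjoins that gap.

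Other genes with a tail-to-tail neighbour also carried opposite-strand counts. Among 569 protein-coding genes with a mean of at least 10 counts on both strands and a detected protein-coding neighbour ending within 1000 bases on the other strand, the median opposite share was 14.4% (quartiles 3.89 and 38.8%), and 112 genes, or 19.7%, had more opposite than sense counts. Among the 107 of them whose neighbour had a mean sense count at least 10-fold higher, as TOP2B has over RARB, the median share was 87.0% (quartiles 54.9 and 97.5%). The sense count of a gene enters both this choice and its share, so the last value is a description only. The source of the opposite-strand read pairs of RARB was not tested.

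The other members had few opposite-strand counts, except CRABP2. CRABP2 had 13 and 15 opposite-strand counts, 25.9% of both strands (Wilson 95% interval 18.6 to 34.9%), and no gene annotated on that strand overlaps it. Its nearest neighbour downstream, the unnamed lncRNA ENSG00000237588, lies 7608 bases away on the strand of CRABP2, and had 71 and 58 opposite-strand counts and 0 sense counts. The nearest gene upstream, the unnamed lncRNA ENSG00000223356, lies 6395 bases away on the same strand and had 4 and 1 opposite-strand counts beside 19 and 7 sense counts. The source of the plus-strand read pairs was not tested. RARA had 3 and 3 opposite-strand counts, RARG 1 and 1, and RXRA, RXRB, RXRG, CRABP1, CYP26A1 and CYP26B1 had 0.

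RARA shares its locus with genes of the other strand. The lncRNA RARA-AS1 lies inside RARA and had 9 and 7 sense counts, and 39 and 19 read pairs ran in its exons on the strand of RARA. An unconfirmed gene model, ENSG00000278918, had 0 sense counts and 46 and 27 on the strand of RARA. Where their exons overlap those of RARA, these may be the same read pairs that RARA counts as sense. In the column that ignores strand, RARA had 173 and 90 counts, fewer than its 226 and 123 over both strands, since read pairs in exons of more than 1 gene are given to none. RXRB overlaps SLC39A7, a zinc transporter gene of the other strand with 26 and 30 counts, and its unstranded counts of 31 and 21 equalled its sense counts.

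Members of this family resemble each other in protein, so the transcripts were searched for shared sequence. No 75-base word, the length of 1 read, was shared between any of the 10 genes. Words were shared with genes other than members, for instance 13.3% of the words of RARA, 31.0% of those of CRABP1 and 22.4% of those of CYP26A1. Among these genes, RARA-AS1 and ENSG00000278918 lie inside RARA, and ENSG00000279694 overlaps CRABP1. For ENSG00000287644, which shared words of RARA, and ENSG00000285846, which shared those of CYP26A1, an overlap is not shown here. RARB shared 2 words of 10377 with transcripts elsewhere.

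**Figure D4:**
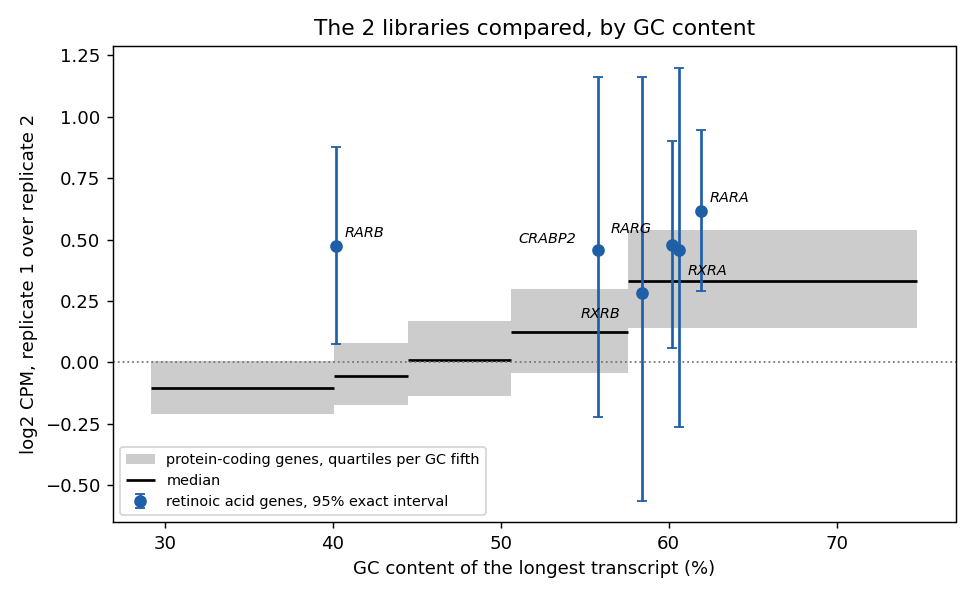
Log2 ratio of CPM in replicate 1 over replicate 2 against the GC content (%) of the longest transcript. Points are the 6 detected genes with exact 95% intervals, and grey boxes with black lines give the quartiles and median of detected protein-coding genes in 5 groups by GC content, whose medians climb from -0.10 to 0.33; all 6 genes lie above 0.

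All 6 detected members had a higher CPM in replicate 1, as did 54.3% of detected protein-coding genes. The ratio of replicate 1 to replicate 2 was 1.53 for RARA, 1.39 for RARB and RARG, 1.37 for RXRA and CRABP2 and 1.22 for RXRB. The exact 95% interval of the log2 ratio lay above 0 for RARA (0.29 to 0.95), RARB (0.07 to 0.88) and RARG (0.06 to 0.90), and reached below 0 for the other 3 genes.

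This ratio moved with GC content. The median log2 ratio of detected protein-coding genes was -0.10 in the lowest of the 5 GC groups and 0.33 in the highest, and RARA, RARG, RXRA and RXRB belonged to the latter. Among genes of that group with a mean count within 1.5-fold, RARA ranked above 89.0%, RARG above 69.2%, RXRA above 59.4% and RXRB above 43.3%. CRABP2, with a GC content of 55.8%, belonged to the second highest group, where it ranked above 75.1% of 398 genes of like count. RARB, with a GC content of 40.2%, belonged to the second lowest group, where it ranked above 98.3% of 516 genes of like count. The part of GC content in the difference between the libraries was not tested.

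Upstream of the receptors, the genes of retinoid uptake, storage and synthesis were split. Of 12, 6 were detected, beside 59.4% of all protein-coding genes, and 5 had no count. STRA6, the membrane receptor that takes up retinol, was the highest with 1106 and 742 counts (241 ± 35.0 CPM, SD, n = 2), and at 31.5 CPM per kb it stood above every one of the 10 members. RDH11, a retinal reductase, had 255 and 227 counts. RBP4, LRAT, BCO1, ALDH1A1 and DHRS9 had 0 counts in both libraries; these encode the retinol carrier of blood, the enzyme that esterifies retinol, the carotene cleaving enzyme, a retinal dehydrogenase and a retinol dehydrogenase.

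Of the 3 retinal dehydrogenases, which make retinoic acid, ALDH1A3 had 72 and 43 counts and ALDH1A2 had 13 and 15. These 2 genes were named after their values were seen. ALDH1A3 also had 52 and 33 counts on the opposite strand, where the lncRNA ALDH1A3-AS1 had 105 and 59 sense counts. Of the 3 other binding and breakdown genes, FABP5, a fatty acid binding protein that can carry retinoic acid, had 35 and 26 counts, CYP26C1 is given above, and RBP7, a retinol binding protein, had 0.

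Most partners and cofactors of the receptors were detected, as were 59.4% of all protein-coding genes. Of 10 other receptors that pair with RXRs, 8 were detected, led by NR4A1 with 301 and 200 counts, NR1H2, an oxysterol receptor, with 135 and 87, and PPARA, a fatty acid receptor, with 99 and 99, while NR4A2 had 0. Of 10 coregulators, 9 were detected, led by the corepressor subunits TBL1XR1 (2243 and 2037 counts) and NCOR1 (1239 and 1151) and the coactivator NCOA2 (862 and 744). The coregulators had a median of 9.25 CPM per kb, against 1.48 for the partner receptors, 0.479 for uptake and synthesis and 1.90 for all protein-coding genes.

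Genes known to respond to retinoic acid did not share a level. Of 11, 5 were detected and 4 had no count, and their median was 0.597 CPM per kb. The homeobox genes MEIS2 (12384 and 10097 counts) and MEIS1 (1588 and 1343) and the receptor tyrosine kinase gene RET (2223 and 1484) were far above every one of the 10 members, whereas the early target HOXB1, the meiosis gene STRA8 and PLAAT4 had 0 counts in both libraries. MEIS2, MEIS1 and RET are also known as genes of sympathetic neuroblasts, and what sets their level was not tested. Over the 46 genes of these 5 lists, 30 were detected, a share to be read beside the 59.4% of all protein-coding genes.

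**Figure D5:**
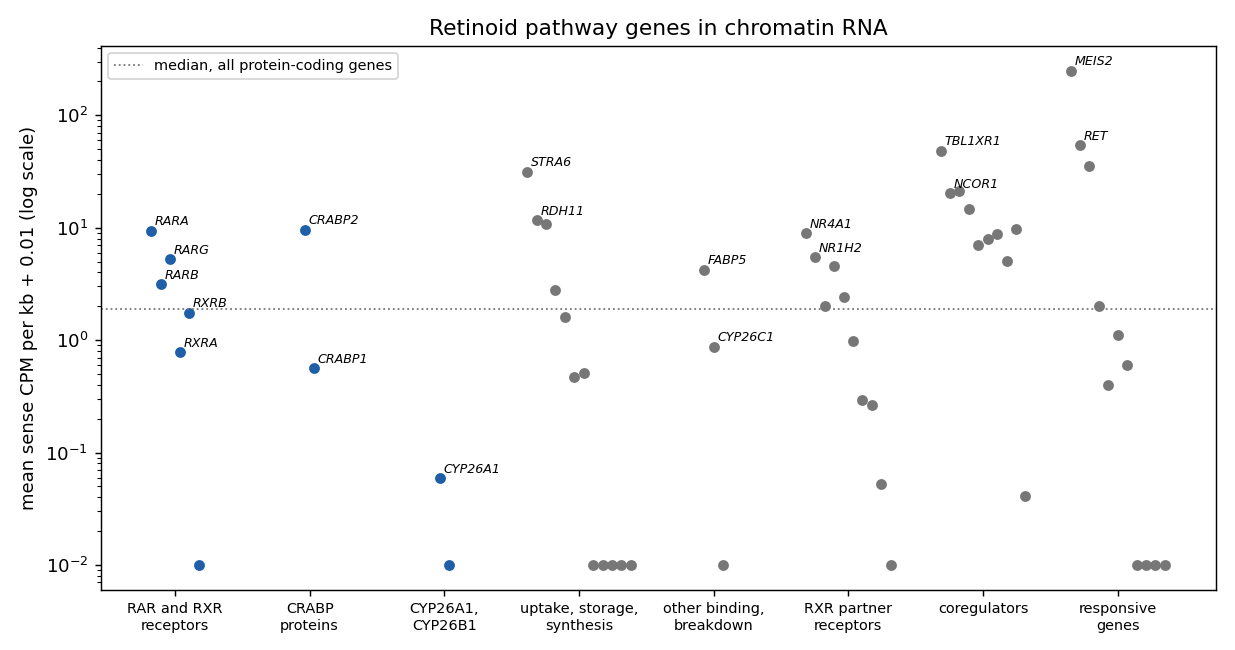
Mean sense CPM per kb plus 0.01 (log axis) of the 10 genes (blue, first 3 columns) and of 46 other genes of the pathway (grey), 1 point per gene; points at 0.01 had no counts and the dotted line is the median of all protein-coding genes, 1.90 CPM per kb. STRA6, TBL1XR1, MEIS2 and RET lie above all 10 members, and each list except the coregulators and the CRABP genes has at least 1 gene without a count.

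The depth and identity of the libraries bear on all these values. Sense counts in genes came to 4155210 in replicate 1 and 3425309 in replicate 2, 88.5 and 88.7% of the counts on either strand. Another 17822011 and 15790416 read pairs lay in no exon on the sense strand and are part of no sense value here. Read pairs that lay only in exons of the opposite strand are among them. All 8 markers of adrenergic neuroblastoma cells were detected (18.5 to 831 CPM). Of 11 markers of other cell types 4 were detected, the fibroblast genes DCN, LUM and COL1A1 and the epithelial gene EPCAM, at 5.61 to 16.6 CPM. The other epithelial gene, CDH1, had 1 count in each library. SOX10, S100B, PTPRC, CD3E, PECAM1 and CDH5 were at 0. The summed level of the 11 markers was 31.8 CPM in replicate 1 and 39.7 CPM in replicate 2. DCN (54 and 69 counts) and LUM (24 and 28 counts) had a higher CPM in replicate 2, whereas COL1A1 (27 and 21 counts) and EPCAM (26 and 17 counts) were higher in replicate 1, as the 6 detected members were. The part of these markers in the members' levels was not tested.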

How the data were processed

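Chromatin RNA of unmodified SH-SY5Y cells was sequenced from both ends (75 bases) in 2 directional libraries with molecular identifiers. According to the submitters' processing notes, UMI-tools, Bowtie and STAR were used with the build hg38; their versions and options are not stated there. The authors deposited raw counts of read pairs per gene in an unstranded column (column 2) and 1 column per strand (columns 3 and 4). Column 4 was taken as the sense strand because it held most counts. The 4 summary lines for read pairs given to no gene were left out of totals.

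CPM, means, SDs and exact Poisson and Wilson 95% intervals were computed in Python 3.11.15 with scipy 1.17.1, checked on simulated data. No test was run, since there was 1 condition. Exon lengths came from GENCODE version 44, whose gene versions differ from those in the files for all 10 members, so that the authors' exon models may differ. Named genes were the members, their neighbours and, from each other list, the 3 highest and those without counts, except some that are not reported here. Members and lists were chosen with earlier results of these data known. Promoter sequences came from RefSeq (GRCh38.p14). TMM factors came from edgeR 4.0.16 (R 4.3.3). Alternatives were the unstranded and opposite columns, other detection limits, other scalings and lengths, and each library alone.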

Additional observations from a re-analysis of the deposited data

Results flagged for a closer look

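At 4 neighbours of the 10 genes the mean opposite-strand count was at least 10 and above the count on the neighbour's own strand. The mean opposite-strand count was 29 at RARA-AS1 and 36.5 at ENSG00000278918, both inside RARA. These read pairs run on the strand of RARA, so RARA may count some of them as sense. It was 121 at ITGB7, the nearest gene downstream of RARG, whose mean sense count was 2.5. It was 64.5 at ENSG00000237588, downstream of CRABP2, whose sense count was 0.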

How the results depend on the processing

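No paired analysis was possible because there was 1 condition and no test. The number of detected members was 6 in the sense column, in the unstranded column and in each library alone, and 7 with a mean count limit of 1. It was 3 with a limit of 100 and 2 in the opposite strand column, where only RARB and CRABP2 remained. Of the 46 other pathway genes, 30 were detected, 35 with a limit of 1, 31 in the unstranded column and 18 with a limit of 100. Without a length correction 5 of 10 genes kept their place in the order, with RARB above RARG and CRABP2 below both, and with the longest transcript 8 did, as RARA and CRABP2 changed places. With each library alone 6 to 10 genes kept their place. With TMM library sizes or totals over protein-coding genes, no member with a count moved by more than the spread between the libraries. In the unstranded column 3 members did: RARB went from 29.6 to 84.7 CPM, CRABP2 from 10.4 to 13.8 CPM and CRABP1 from 0.533 to 0.259 CPM. The opposite strand share ran from 63.1 to 73.4% for RARB and from 20.6 to 33.3% for CRABP2 over the 2 libraries. Depth limits the 4 nearly silent genes: 3 counts correspond to 0.722 CPM in replicate 1 and 0.876 CPM in replicate 2.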
